A study of Beta vulgaris with 9 samples.

Results

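Single-exon intergenic lncRNAs on chromosomes are the long noncoding RNAs of sugar beet leaves that the deposited tables type as intergenic, list with 1 exon and place on a sequence whose name starts with NC_. They number 3204 of the 8535 lncRNAs (37.5%) and of the 43133 transcripts in the expression table. The other lncRNAs are 570 spliced intergenic lncRNAs on the same sequences, 2260 intergenic lncRNAs on unplaced sequences and 2501 antisense lncRNAs. The members were chosen here by type, exon number and position, and not by an expression value. The study assembled the lncRNAs from the reads of its own samples, however, so being listed at all depended on expression in them. Of the members, 0 were listed at 0 in all 9 libraries.

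Leaves of the cultivar KWS0143 were taken from the same position on seedlings grown for 5 weeks, the later 4 in Hoagland solution. All groups therefore share the cultivar, the nutrient solution and the age at which treatment began. Control leaves (C) were taken at day 0, short-term alkaline leaves (ST) at day 3 and long-term alkaline leaves (LT) at day 7 of a 75 mM mixture of Na2CO3 and NaHCO3, with 3 libraries in each group. Since controls were taken at day 0 only, alkaline treatment, leaf age and day of harvest cannot be told apart.

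An intergenic lncRNA is a transcript of over 200 nt that lies outside annotated genes and has no recognised coding potential. Such RNAs can act on neighbouring genes, serve as scaffolds or decoys, or give rise to small RNAs, and in plants several of them take part in flowering, phosphate supply and stress responses. Transcripts with 1 exon carry no splice junction that could fix their strand, so their strand rests on the library preparation alone, and the same stretch can be listed once on each strand. No function is known from the files for any of these transcripts, which carry numbers and no names.

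LNC_000365 was the member for which the study gave qRT-PCR primers, and it is also the member that fell in both ST and LT leaves below. The study listed negative changes for this member at both times, by RNA-seq and by qRT-PCR. Its position is NC_025812.2:8571769-8572055 (minus strand), in a genome build that the sources used here do not name. Both primers are 25 nt long, and they are shown because this is the transcript whose fall was measured at both times (5′ to 3′, with no part marked).
LNC_000365 forward primer: ttcactccatagtctgatagatcgt
LNC_000365 reverse primer: aatgggactctatctttattctcgt

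The members were short and spread over all chromosome sequences. Their median length was 240 nt (quartiles 221 and 304 nt), the longest had 5013 nt, and 73.9% had under 300 nt. Of the 3204 members, 3203 lay on the 9 sequences NC_025812.2 to NC_025820.2, at 8.51 members per Mb of the 376 Mb over which they reach. NC_025817.2 held the most, 573 members at 9.40 per Mb, and NC_025814.2 the fewest, 200 members at 7.53 per Mb. The remaining member, LNC_000001, lay alone on NC_002511.2. The plus strand carried 1548 members and the minus strand 1656.

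Most members lay near a gene. The median distance from a member to the nearest protein-coding gene was 4992 bp, 12.4% lay within 1 kb and 71.9% within 10 kb. The nearest gene was on the same strand for 47.6% of the members, 1671 members lay upstream and 1497 downstream of it, and 35 overlapped its span. Among the 398 members within 1 kb of a gene, 0 were downstream of it on the same strand. How the authors' assembly and filters shaped this gap was not tested.

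All levels are in FPKM, which scales fragments to the length of the transcript and the size of the library. Multiplied by transcript length, FPKM fell on whole multiples of 1 step per library for 96.5% to 97.6% of the values under 2000 steps, within 0.1 step. A member of 240 nt at 0.5 FPKM held between 601 and 790 of these steps, and 600 steps was the commonest single value in every library. The sources used here do not say what 1 step stands for, so read depth is unknown and low values have no counting interval. If 1 step were 1 aligned base and reads were pairs of 150 bases, 0.5 FPKM in a member of 240 nt would be 2.00 to 2.63 read pairs. The 29 genes of a leaf mesophyll marker list all averaged over 1 FPKM and summed to between 63159 and 80757 FPKM in C leaves, 42995 and 57045 in ST leaves and 33318 and 49009 in LT leaves. The 16 genes of an epidermis and guard cell list, 2 of them listed at 0 throughout, summed to between 55.2 and 66.8 FPKM in C leaves, 60.2 and 65.7 in ST leaves and 85.2 and 104 in LT leaves. The 2 genes of a dividing cell list, both over 1 FPKM, summed to between 7.05 and 7.58 FPKM in C, 8.49 and 10.8 in ST and 9.18 and 10.3 in LT leaves. The 1 phloem gene found had between 2.42 and 3.80 FPKM in C, 4.20 and 5.45 in ST and 4.77 and 5.58 in LT leaves, and the root list matched no gene name. In whole leaves, fewer cells of a type and less RNA per cell cannot be told apart, and the part of these shifts in the results was not tested.

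Few members reached an appreciable level in any one library. At over 0.5 FPKM stood 593, 554 and 497 members in the C libraries, 594, 591 and 679 in the ST libraries and 671, 669 and 619 in the LT libraries. All 3 LT libraries held more such members than any C library, while ST and C libraries overlapped. The mean was 653 ± 29.5 in LT leaves and 548 ± 48.3 in C leaves (SD, n = 3 each; two-sided exact permutation test, p = 0.1, the smallest that 3 against 3 can give), and 621 ± 49.96 in ST leaves (against C leaves exact p = 0.2). This direction depended on the scaling, as LT leaves held 50.3 fewer such members than C leaves when libraries were scaled by median ratios of genes. Over the whole set, 449 members were above 0 in all 9 libraries, and 2291 passed 0.5 FPKM in at least 1 library.

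The share of transcripts over 0.5 FPKM separated the members from the other lncRNAs in each library. Averaged over the 9 libraries it was 19.0% ± 1.87 for the members against 42.8% ± 4.57 for spliced intergenic lncRNAs on the same sequences (SD, n = 9), lower in 9 of 9 libraries (difference -23.9 percentage points). Against the 29.99% ± 2.25 of intergenic lncRNAs on unplaced sequences it was also lower in 9 of 9 libraries (difference -11.03 points), and against the 13.0% ± 2.05 of antisense lncRNAs it was higher in 9 of 9 (difference 5.92 points). All 3 differences had an exact sign-flip p = 0.00391, adjusted over the 3 classes 0.00391, the smallest that 9 libraries can give. All 9 libraries measure the same lists of transcripts, which were assembled from these samples. This p therefore tells how regularly the difference recurs over libraries, and does not measure the spread between transcripts of a class. The classes also differed in length, as the median was 240 nt for members, 653 nt for spliced lncRNAs, 270.5 nt for those on unplaced sequences and 240 nt for antisense lncRNAs, and the part of length was not tested.

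**Figure D1:**
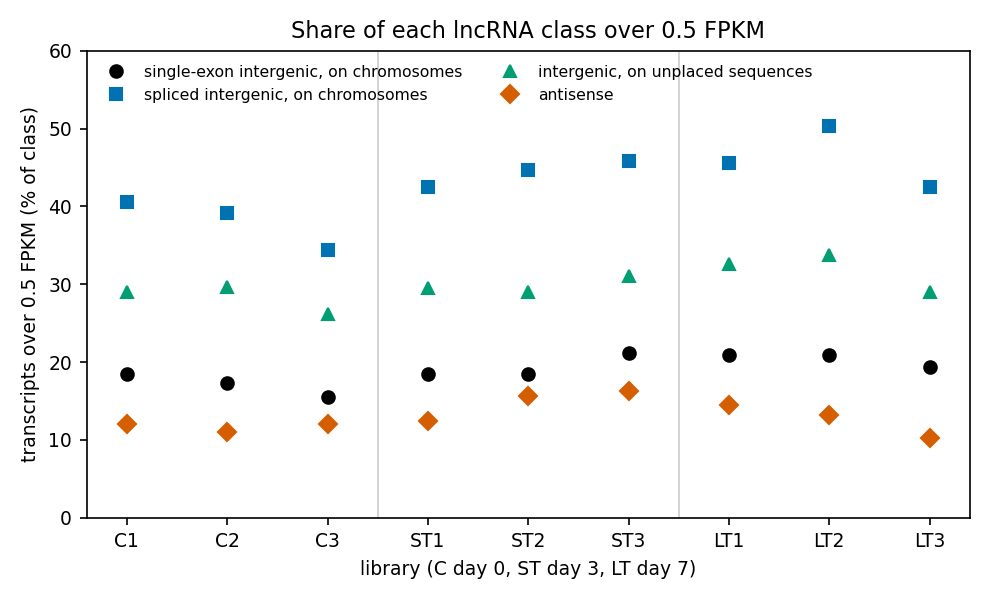
Percent of each lncRNA class over 0.5 FPKM (y axis, linear from 0) in each of the 9 libraries (x axis; C day 0, ST day 3, LT day 7), 1 point per class and library. The single-exon intergenic lncRNAs lie below the spliced and the unplaced intergenic lncRNAs and above the antisense lncRNAs in all 9 libraries.

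A few members carried most of the signal. The FPKM of all members summed to between 26905 and 33709 in C leaves, 22538 and 24169 in ST leaves and 21560 and 23180 in LT leaves, and the 10 members with the highest mean made up 76.4% ± 2.07 of it in C leaves, 70.4% ± 1.09 in ST leaves and 66.6% ± 1.65 in LT leaves (SD, n = 3 each). Without these 10, the sum averaged 7542 ± 142 FPKM in LT leaves against 7268 ± 267 in C leaves, with overlapping libraries (exact permutation p = 0.2). For ST leaves the sum without them was 6895 ± 426 FPKM (against C leaves exact p = 0.3). Both ST and LT totals lay below every C library with the 10 included (exact p = 0.1 each, the smallest possible) and overlapped C without them. The 10 were between 202 and 480 nt long.

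Among these 10, LNC_000989 was the highest. It had 2861, 2395 and 3886 FPKM in the 3 LT libraries and 4011, 4123 and 3561 FPKM in the 3 ST libraries, against 5891, 6521 and 8579 FPKM in the 3 C libraries. Every alkaline library lay below every C library. LNC_003989, the second in rank, did not move in this way, with 3709.5, 3369 and 3427 FPKM in LT, 3849, 3636 and 3800.4 in ST and 3565, 3861 and 3531 in C libraries, which overlap throughout. LNC_001024 likewise overlapped, at 1594 ± 78.4 FPKM in LT, 1784 ± 135 in ST and 1710.0 ± 353 in C leaves. LNC_004394 was the one of the 10 with every LT library above every C library, at 2325, 1446 and 1596 FPKM in LT against 368, 542 and 1201 in C libraries, and did not pass (adjusted p = 0.131, limma). Of the 10, 6 lay below every C library in LT leaves, 4 of which passed the test described next.

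Changes were tested with limma on log2(FPKM + 1), 1 fit over all 9 libraries, for the 1914 lncRNAs that averaged over 0.5 FPKM in C, ST or LT leaves, with p-values adjusted over all 1914 by the Benjamini-Hochberg method at 0.05. Of the members, 563 (17.6%) passed this filter and 2641 did not, and the median length of those tested was 404 nt. Of the 563, 78 passed through the LT mean alone, 39 through the ST mean alone and 31 through the C mean alone. A member that entered through 1 group alone is high there by the filter itself. The share tested was 4.50% for members under 250 nt, 15.4% from there to under 300 nt, 28.01% to under 500 nt, 95.8% to under 1000 nt and 100% for 1000 nt or more. The log2 scale with 1 added understates changes at low FPKM. The median log2 change of the 14491 genes tested was 0.11 for ST against C, 0.26 for LT against C and 0.15 for LT against ST, and each change below is given relative to that median with its SE, while its p tests the change before the median is taken off. The median of the 563 tested members themselves was 0.02, 0.10 and 0.06 in the same order. The median member therefore lies below 0 on the relative scale. Against C, ST and LT leaves share the same 3 control libraries.

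In short-term leaves 1 member passed. LNC_000365 fell to 734, 736 and 732 FPKM in the ST libraries, against 1044, 1238 and 1480.3 FPKM in the C libraries. The ST libraries differed little (SD 1.96 FPKM) and all lay below the lowest C library. The relative log2 change was -0.87 (adjusted p = 0.0483, limma). This is 1 of 563 members, beside 0.47% of all lncRNAs tested (0.209% fell), so the count is near the background. The call was lost in 14 of 18 alternatives, among them 8 of the 9 that left out 1 library, all but C1, and without C1 a total of 5 members passed. At an unadjusted p under 0.05, 39 members were higher and 41 lower, 14.2% against 13.5% of all lncRNAs. In 23.3% of the members the ST and C libraries did not overlap, against 21.6% of all lncRNAs.

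In long-term leaves 22 members rose and 18 fell. These 40 are 7.10% of the 563 tested, against 7.52% of all lncRNAs tested in the same fit (3.61% rose and 3.92% fell), so the share is near the background. The split depended on the scaling: 16 rose and 43 fell when libraries were scaled by median ratios, which brought the median change of all genes to 0.02, and 24 rose and 12 fell when libraries were set to the same total FPKM, which brought it to 0.39. In 27.7% of the members tested the LT and C libraries did not overlap, 89 with LT above and 67 below, against 28.6% of all lncRNAs. The filter favours LT above C, as 78 members passed it through LT alone and 31 through C alone. The risers LNC_000160 and LNC_004744 are among the 78. None of the 40 turned its sign in any alternative in which it was tested, which was 18 for 37 of them, 17 for LNC_003904 and LNC_005147 and 15 for LNC_002365, and 16 of them, 10 that rose and 6 that fell, passed in all 18. Without the library C2 or C3, 21 and 18 members passed, and without LT2, 25. Without LT1, 57 passed, 43 of which rose and 14 fell, so the split rested on that library too.

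Those that rose were longer and lower in level than those that fell. The 22 that rose had a median length of 628.5 nt (314 to 1489 nt) and a median mean level of 6.26 FPKM, and 2 of them averaged over 100 FPKM. The 18 that fell had a median length of 307 nt (233 to 1400 nt) and a median of 41.0 FPKM, and 6 averaged over 100 FPKM. All 22 that rose were over 300 nt, as were 10 of the 18 that fell and 69.3% of the tested members. Calls followed the level, at 2.64% of the 265 tested members with a mean of up to 1 FPKM, 6.07% of 214 up to 10 FPKM, 21.8% of 55 up to 100 FPKM, 27.3% of 22 up to 1000 FPKM and 28.6% of 7 above that. NC_025817.2 had the most calls, with 5 that rose and 4 that fell of 116 tested, while 4 members rose and 0 fell of the 49 tested on NC_025819.2. Both counts are near the share of all lncRNAs tested that were called, 7.52%. Among the risers on NC_025819.2, LNC_004744, LNC_004745 and LNC_004748 lie on 1 stretch of 37379 nt.

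**Figure D2:**
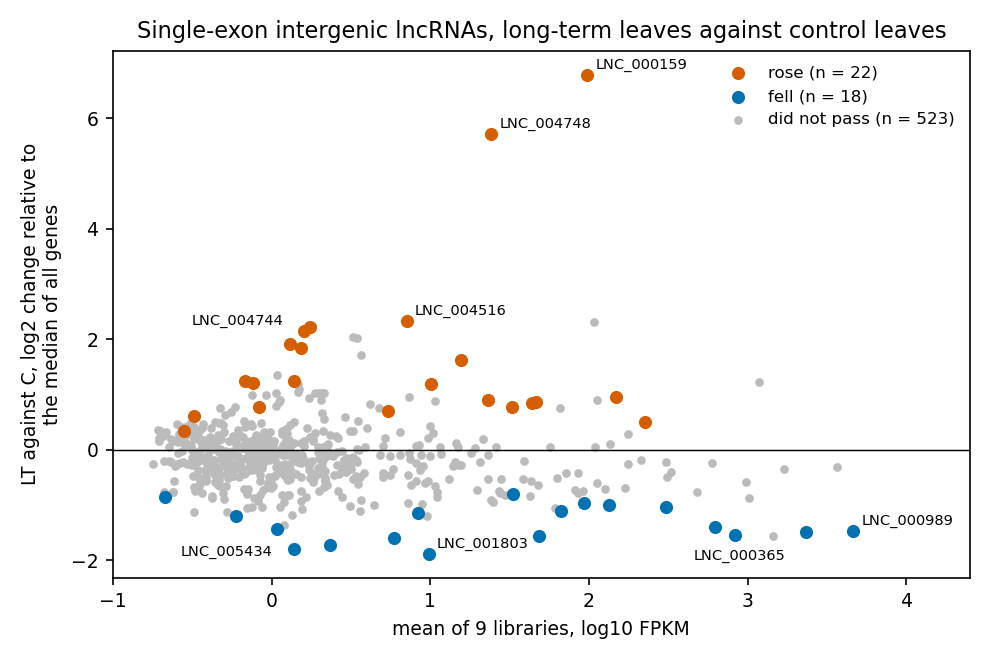
Log2 change of LT against C leaves relative to the median of all genes (y axis, log2(FPKM + 1) scale) against the mean of the 9 libraries (x axis, log10 FPKM) for the 563 tested members, 1 point each. The 22 that rose lie mainly at low and middle levels and the 18 that fell reach the highest levels. For the 6 that rose from a listed value of 0 in all C libraries, the height depends on the pseudocount of 1.

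The ST values of these 40 members are given as a description. The ST mean lay between the C and LT means in 22 of the 22 that rose and in 18 of the 18 that fell. All 3 ST libraries lay above every C library in 14 of the 22, and below every C library in 16 of the 18. Over all 563 tested members the ST libraries lay above every C library in 62 and below every C library in 69. The 40 were picked by the LT against C test with the same C libraries, which favours such places of the ST values, and 1 of them passed in ST against C.

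Of the members that rose and were not listed at 0 in all C libraries, LNC_000159 had the largest log2 change. It has 827 nt and lies on the plus strand of NC_025812.2 (14289602 to 14290428). It had 337, 225 and 187 FPKM in the LT libraries and 30.2, 80.7 and 9.92 FPKM in the ST libraries, against 4.19, 0.195 and 0 FPKM in the C libraries. The 3 groups did not overlap, and C1 held nearly all of the control signal. The relative log2 change was 6.79 ± 0.77 in LT leaves (adjusted p = 0.00162, limma) and 3.93 in ST leaves, where it did not pass (adjusted p = 0.0645). LNC_000160, of 811 nt, begins 970 nt further along on the same strand. It was listed at 0 in all C libraries and had 4.46, 3.66 and 2.56 FPKM in the LT and 0.345, 0.798 and 0 FPKM in the ST libraries (LT against C adjusted p = 0.00218, limma). Thus neighbours 970 nt apart both rose, at levels that differed widely. Whether they are parts of 1 transcript was not tested.

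Another 3 risers lay within 37379 nt of the plus strand of NC_025819.2. LNC_004748 (34511304 to 34511880, 577 nt), which the study also named, was listed at 0 in all C libraries, with 71.4, 61.6 and 54.6 FPKM in the LT and 9.58, 18.9 and 1.45 FPKM in the ST libraries. LNC_004745 was listed at 0 in all C libraries too, with 2.74, 5.74 and 5.79 FPKM in the LT and 1.38, 0.128 and 0 FPKM in the ST libraries. LNC_004744 had 3.50, 5.00 and 4.57 FPKM in the LT and 0.487, 0.352 and 0.445 FPKM in the ST libraries, again with 0 listed in C. In all 3 the LT libraries stood above all others, and the adjusted p for LT against C was 0.00141, 0.00493 and 0.000217 in the order named (limma). LNC_004748 also had every ST library above every C library, without passing at day 3 (adjusted p = 0.0751). The ST libraries ranked alike in LNC_000159 and LNC_004748, with ST2 highest and ST3 lowest.

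The same stretch holds 5 more lncRNAs. LNC_004746, a single-exon lncRNA between LNC_004745 and LNC_004748, reached at most 0.614 FPKM in any library and was not tested. The spliced LNC_004747 on the same strand had 18.0, 14.3 and 9.12 FPKM in LT libraries against 0.258, 0 and 0 in C libraries (adjusted p = 0.00267, limma). On the minus strand the spliced LNC_005044 had 12.6, 6.12 and 6.81 FPKM in LT libraries and 0 listed in C (adjusted p = 0.00286). The overlapping spliced LNC_005042 and LNC_005043 were each high in 1 LT library and did not pass. The stretch was noticed after the values were seen.

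**Figure D3:**
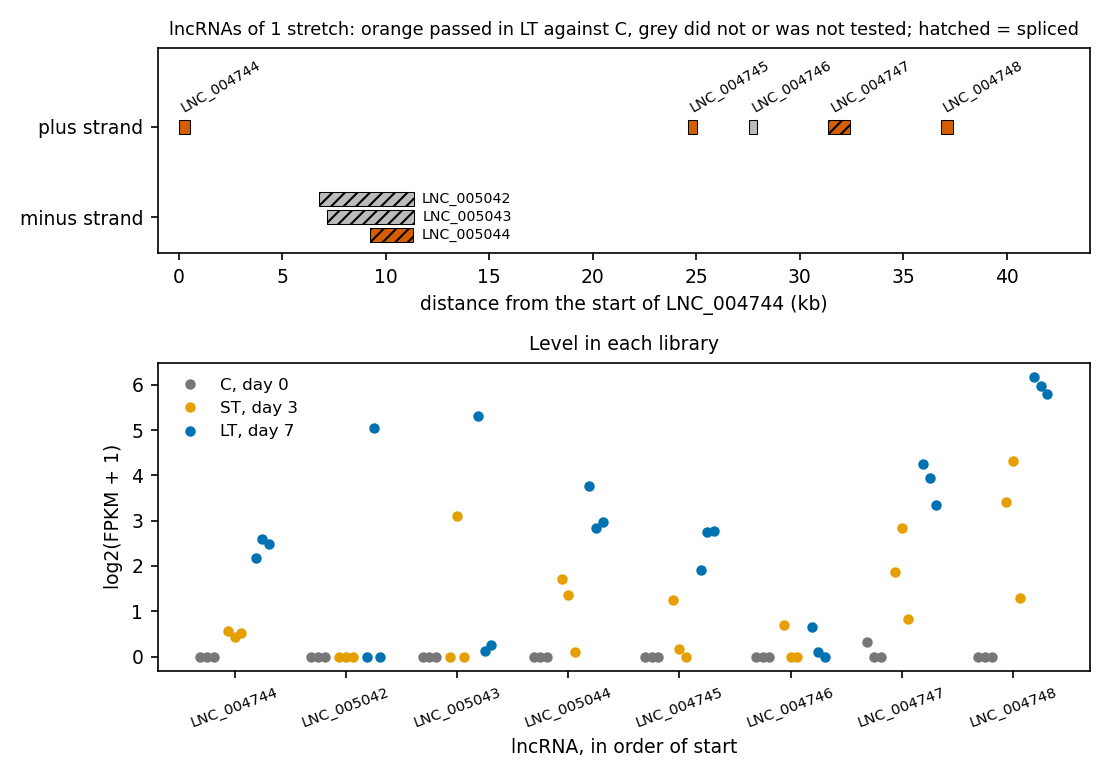
The upper panel places 8 lncRNAs by distance in kb from the start of LNC_004744 and by strand, with spliced ones hatched, and marks in orange those that passed in LT against C. The lower panel gives log2(FPKM + 1) in each library, with C, ST and LT from left to right within each lncRNA. LNC_004744, LNC_004745 and LNC_004748 are at 0 in all C libraries and highest in LT libraries.

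Of the other members that rose, LNC_004516 (810 nt) had 19.5, 19.9 and 6.48 FPKM in LT and 3.30, 6.42 and 3.95 FPKM in ST libraries, against 1.87, 1.06 and 1.46 FPKM in C libraries, a relative log2 change of 2.34 ± 0.40 (adjusted p = 0.007, limma). LNC_003586, LNC_003606 and LNC_001267 shared another pattern, with LT1 lowest and LT3 highest: LNC_003586 had 1.17, 4.55 and 6.90 FPKM in LT against 0.0991, 0 and 0.082 in C libraries. LNC_000557, the longest riser at 1489 nt, had 24.4, 31.6 and 27.2 FPKM in LT against 11.4, 7.26 and 3.51 FPKM in C libraries. LNC_000247 and LNC_003904 were listed at 0 in every C library, and averaged 1.99 ± 1.24 and 0.872 ± 0.452 FPKM in LT leaves (SD, n = 3).

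LNC_001910, of 813 nt on NC_025815.2, was as high at day 3 as at day 7. It had 14.9, 13.5 and 12.2 FPKM in LT and 12.0, 11.7 and 13.3 FPKM in ST libraries, against 6.65, 4.30 and 2.68 FPKM in C libraries. The ST and LT libraries overlap and both lie above every C library, with a relative log2 change of 1.19 ± 0.26 in LT leaves (adjusted p = 0.0114, limma) and 1.22 in ST leaves (adjusted p = 0.0645). LNC_005712 and LNC_004751, at higher levels than LNC_001910, changed less in the ratio of group means. LNC_005712 had 194 ± 14.5 FPKM in LT against 86.8 ± 31.4 in C leaves, and LNC_004751 had 274 ± 38.5 FPKM in LT against 161 ± 21.98 in C leaves (SD, n = 3 each). LNC_000560, LNC_003837, LNC_003665, LNC_000637 and LNC_001303 rose by at most 2.38-fold in the ratio of group means. LNC_002945 averaged 1.64 ± 0.468 FPKM in LT against 0.269 ± 0.0603 in C leaves, and LNC_005147 averaged 0.647 ± 0.102 against 0.0827 ± 0.0882 FPKM.

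**Figure D4:**
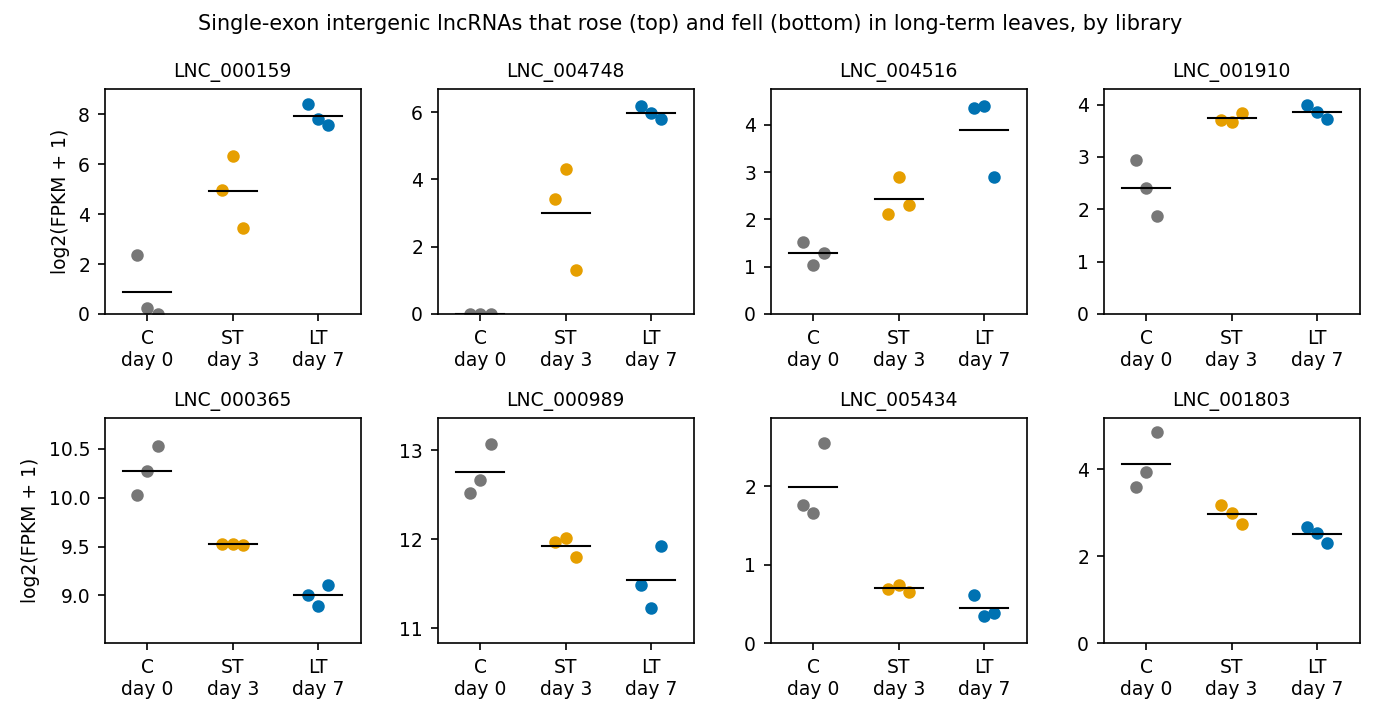
Log2(FPKM + 1) of 4 members that rose (top row) and 4 that fell (bottom row) in the 3 libraries of C, ST and LT leaves, with a bar at each group mean. The y axes differ between panels and those of LNC_000365 and LNC_000989 do not start at 0. In LNC_000159, LNC_004748, LNC_004516, LNC_000365, LNC_005434 and LNC_001803 the ST libraries lie between the C and LT libraries.

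Of the 6 members that fell and averaged over 100 FPKM, 4 had an LT mean under 0.5 of the control mean. LNC_000365 had 511, 474 and 552 FPKM in the LT libraries, below all ST and all C libraries (relative log2 change -1.54 ± 0.13, adjusted p = 0.00141, limma). LNC_004079 (313 nt, NC_025818.2) had 1485, 1191 and 1877 FPKM in LT and 1900.5, 1965 and 1999.8 in ST libraries, against 3178, 3193 and 4185 FPKM in C libraries. LNC_002395 (480 nt, NC_025816.2) had 438, 308 and 529 FPKM in LT and 479, 554 and 537 in ST libraries, against 817, 957 and 990.2 FPKM in C libraries. In all of these, as in LNC_000989, every LT and every ST library lay below every C library, and the adjusted p for LT against C was at most 0.00853. The ratio of the LT to the C mean was 0.435 for LNC_000989, 0.431 for LNC_004079, 0.409 for LNC_000365 and 0.461 for LNC_002395. For the other 2, LNC_003114 and LNC_003120, it was 0.569 and 0.592.

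The steepest falls were at lower levels. LNC_005434 (563 nt, NC_025820.2) had 0.527, 0.276 and 0.301 FPKM in LT and 0.619, 0.670 and 0.578 FPKM in ST libraries, against 2.39, 2.15 and 4.87 FPKM in C libraries, a relative log2 change of -1.80 ± 0.25 (adjusted p = 0.00835, limma). LNC_001803 (266 nt) had 5.36, 4.78 and 3.93 FPKM in LT and 7.99, 6.90 and 5.66 in ST libraries, against 11.1, 14.4 and 27.7 FPKM in C libraries, with a relative log2 change of -1.89 ± 0.31 (adjusted p = 0.0147). Both were below every C library at day 3 as well. LNC_002092 averaged 29.4 ± 2.18 FPKM in LT against 75.2 ± 17.9 in C leaves, and LNC_002601, at 1400 nt the longest that fell, 1.02 ± 0.199 FPKM in LT against 4.79 ± 1.91 in C leaves (SD, n = 3 each). LNC_003204 had 3.16, 2.39 and 3.09 FPKM in LT against 5.87, 10.3 and 10.9 FPKM in C libraries. LNC_002005 averaged 0.429 ± 0.654 FPKM in LT against 2.06 ± 0.416 in C leaves. LNC_002365 was listed at 0 in all LT libraries and had 0.568, 0.648 and 0.351 FPKM in the C libraries. The others that fell were LNC_001462, LNC_005721, LNC_001936, LNC_003114, LNC_003120, LNC_001110 and LNC_003617, of which LNC_003617 changed least, with a relative log2 change of -0.80 ± 0.14.

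Between the times of treatment 2 members passed. In LT against ST leaves these were LNC_000160 (adjusted p = 0.04995, a call lost in 11 of 18 alternatives) and LNC_004744 (adjusted p = 0.00258, limma, lost in 0 of 18), and 0 fell, against 0.157% of all lncRNAs tested. The relative log2 change of LNC_004744 in LT against ST was 1.75. Both members passed the filter of 0.5 FPKM through the LT mean alone, which favours a rise. Their ST means were 0.381 FPKM for LNC_000160 and 0.428 FPKM for LNC_004744. Without LT1 10 members passed, without LT2 4, and without ST3 or any 1 of the C libraries 1. At an unadjusted p under 0.05, 67 members were higher and 31 lower in LT than in ST leaves, 17.4% against 15.8% of all lncRNAs. In 21.7% of the members the LT and ST libraries did not overlap, against 22.3% of all lncRNAs.

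On the same stretch of chromosome, 52 pairs of members lay on opposite strands with an overlap of at least 50% of the shorter one. They comprise 104 members (3.25%), share a median of 252.5 nt, and in 43 pairs the shorter member lies wholly inside the longer. The members of pairs were more often at a testable level, 71 of 104 (68.3%) against 492 of the 3100 others (15.9%). Of the 10 highest members 7 were in a pair, of the 20 highest 12 and of the 50 highest 23. In 46 pairs at least 1 strand was tested, in 25 both.

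Within a pair, 1 strand usually held most of the signal. The stronger strand had over 10 times the mean FPKM of the weaker in 30 of the 46 pairs. Over all 46 pairs the stronger strand was the plus strand in 27. In 23 of the 25 pairs with both strands tested the same strand was higher in all 9 libraries. The weaker strand held between 0.0341% and 20.6% of the signal in the 10 most abundant pairs, with a median of 0.866%. Over the 25 pairs with both strands tested the median was 4.70%, the stronger strand had over 10 times the weaker in 16 and under 2 times the weaker in 3, and over all 46 pairs the weaker strand held at most 45.1%. LNC_004605 and LNC_004871 were at the low end, the plus strand member LNC_004605 with 774, 1469 and 694 FPKM in LT, 713, 868 and 678 in ST and 1189.6, 4241 and 2345 in C libraries, and LNC_004871 under 3 FPKM in all 9. The high end of the 10 most abundant pairs was LNC_005227 with LNC_005555. LNC_005227 averaged 324 ± 16.0 FPKM in LT and 360.1 ± 12.5 in C leaves, and LNC_005555 71.9 ± 1.83 in LT and 104 ± 18.4 in C leaves. Over all 46 pairs the high end was LNC_005256 with LNC_005566, at means of 3.59 and 2.95 FPKM over the 9 libraries. How completely the libraries kept the strand was not tested.

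Members of pairs were called more often in LT against C, 11 of 71 tested (15.5%) against 29 of 492 tested members outside pairs (5.89%), beside 7.52% of all lncRNAs. Of the 18 members that fell, 10 were in a pair, 9 of them as the stronger strand, and of the 22 that rose, 1 was. That one was LNC_004751, whose partner LNC_005048 stayed under 0.6 FPKM. In the 11 pairs with a called strand, 0 had both strands called. Members of pairs were also more abundant, and calls followed the level as given above. The partners of the abundant members that fell were LNC_000685 with 22.8 ± 4.76 FPKM in LT against 33.6 ± 4.27 in C leaves, LNC_000105 with 7.90 ± 1.33 against 10.4 ± 2.90, LNC_004392 with 8.21 ± 1.57 against 12.1 ± 2.22 and LNC_002762 with 6.93 ± 1.26 against 8.77 ± 0.475 FPKM (SD, n = 3 each). None of these partners passed (adjusted p from 0.122 to 0.436, limma).

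The balance of the strands was tested with limma on the log2 ratio of the plus to the minus strand member (FPKM + 1 each), adjusted over the 46 pairs. It changed in 7 of the 46 pairs (15.2%) in LT against C, in 0 in ST against C (9 at an unadjusted p under 0.05) and in 0 in LT against ST (6 unadjusted). The mean share of the weaker strand was higher in LT than in C leaves in 5 of the 7 and lower in 2. In LNC_005452 with LNC_005100, which is among the 2, the shares of LT and C libraries overlapped and LNC_005100 was not tested. With 1 added to each FPKM, the ratio of a pair with a strand near 0 mostly follows the other strand. Both strands were tested in 6 of the 7 pairs. The count rests on the processing, as 1 pair passed with a pseudocount of 0.1, and between 2 and 9 without 1 library: 2 without C2, 3 without C3, LT1 or LT2, and 4 without ST1, ST2 or ST3.

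The clearest case was LNC_003120 with LNC_003599, which share 269 nt of NC_025817.2. LNC_003120, on the plus strand, fell to 97.1, 95.4 and 99.3 FPKM in LT libraries, against 158, 183 and 152 FPKM in C libraries. LNC_003599, on the minus strand, had 14.1, 11.1 and 12.3 FPKM in LT against 8.33, 7.57 and 6.23 FPKM in C libraries, higher in all 3 without passing by itself (adjusted p = 0.0798). The weaker strand held 12.7%, 10.4% and 11.1% of the pair in LT libraries, 5.88%, 8.19% and 5.96% in ST libraries and 5.02%, 3.97% and 3.94% in C libraries. The 3 groups did not overlap, and the balance changed by -1.44 ± 0.24 on the log2 scale in LT against C (adjusted p = 0.00281, limma).

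In LNC_001803 with LNC_002074 the weaker strand held 21.3%, 21.6% and 37.7% in LT against 11.1%, 9.80% and 7.68% in C libraries (adjusted p = 0.00776, limma). LNC_001803 fell, and LNC_002074 had 1.72 ± 0.579 FPKM in LT and 1.75 ± 0.487 in C leaves. In LNC_000365 with LNC_000105 it held 1.74%, 1.34% and 1.47% in LT against 0.846%, 0.685% and 0.919% in C libraries (adjusted p = 0.0164). LNC_002395 with LNC_002762 and LNC_004079 with LNC_004392 shifted the same way, to 1.63% ± 0.196 in LT against 0.948% ± 0.0974 in C leaves and to 0.548% ± 0.109 against 0.347% ± 0.0697. The shares of LT and C libraries did not overlap in 6 of the 7 pairs. The exception was LNC_005452 with LNC_005100, where the minus strand member LNC_005452 had 149, 174 and 164 FPKM in LT against 93.2, 28.5 and 6.35 in C libraries and LNC_005100 averaged under 0.3 FPKM in each group. In LNC_004886 with LNC_004608 the weaker strand lost share, to 3.205% ± 0.867 in LT against 6.98% ± 2.34 in C leaves.

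**Figure D5:**
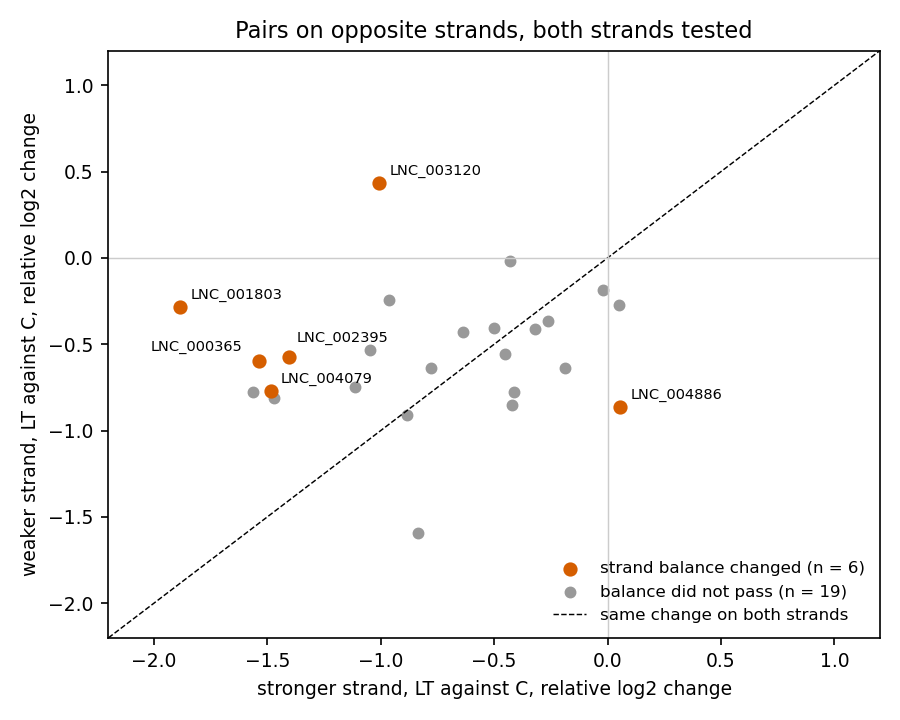
Relative log2 change of LT against C leaves on the weaker strand (y axis) against that on the stronger strand (x axis) for the 25 pairs with both strands tested, 1 point per pair, labelled by the stronger member where the strand balance changed. The dashed line marks the same change on both strands. Of the 6 pairs with a changed balance, 5 lie above the line, where the stronger strand has the lower change.

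Neighbouring pairs could differ. LNC_002396 lies 385 nt beyond LNC_002395 on the same strand and is also paired, with LNC_002763, and it was picked out here after its values were seen. It had 149, 193 and 166 FPKM in LT against 171, 166 and 169.5 FPKM in C libraries, which overlap (adjusted p = 0.996, limma), beside the fall of LNC_002395 to 0.461 of its control mean. Of the other abundant pairs, LNC_002331 averaged 825 ± 165 FPKM in LT against 1262 ± 176 in C leaves and missed the threshold (adjusted p = 0.0519), with its partner LNC_002718 at 19.4 ± 4.61 against 30.9 ± 6.53. LNC_003114 fell to 222 ± 23.0 FPKM in LT against 389 ± 101 in C leaves beside LNC_003575 at 25.4 ± 5.76 against 30.4 ± 3.37, LNC_001936 to 49.2 ± 5.07 against 90.8 ± 18.4 beside LNC_001670 at 22.9 ± 4.28 against 32.1 ± 1.56, and LNC_001110 to 72.7 ± 1.03 against 121 ± 25.5 beside LNC_000790 at 1.73 ± 0.463 against 1.72 ± 0.660. LNC_003204, whose partner LNC_003697 averaged 35.5 ± 4.68 in LT against 53.2 ± 3.87 in C leaves (adjusted p = 0.0562), was the one weaker strand that fell. LNC_003989 and LNC_004288 shared their stretch at 3502 ± 182 and 4.90 ± 0.607 FPKM in LT leaves against 3652 ± 181 and 5.56 ± 0.523 in C leaves.

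The 3 other members that the study named did not pass. It listed all 3 as possible microRNA precursors, LNC_003048 and LNC_003498 for the same microRNA. LNC_003048 averaged 15.2 ± 2.52 FPKM in LT, 15.3 ± 3.08 in ST and 15.3 ± 1.29 in C leaves. LNC_003498, its partner on the opposite strand, had 131, 200.2 and 76.8 FPKM in LT against 97.2, 148 and 72.6 in C libraries, and the groups overlapped. LNC_003418 averaged 0.377 ± 0.441 FPKM in LT, 0.339 ± 0.309 in ST and 1.40 ± 0.782 in C leaves (LT against C adjusted p = 0.147, limma). LNC_000773, among the 10 highest members, had 877 ± 96.1 FPKM in LT against 1100.3 ± 22.1 in C leaves, with every LT library below every C library, and missed the threshold (adjusted p = 0.0799).

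Genes beside the called members were looked up within 10 kb. The 40 called members had 40 protein-coding genes there, around 26 of the members, and 31 of these genes were at a level that could be tested. Of the 31, 8 rose and 3 fell in LT against C (35.5%), against 38.3% of the 14491 genes tested (31.1% rose and 7.23% fell), so the share is near the background. Among 32 combinations of a called member and a tested gene, 9 had both passing in the same direction and 3 in opposite directions. Gene 104893186 enters with LNC_000159 and again with LNC_000160. More of all genes rose than fell, and no background was computed for these combinations, so the split is a description only. Scaling by median ratios left 3 that rose and 4 that fell, and setting libraries to the same total FPKM gave 13 that rose and 3 that fell.

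Gene 104893186, on the same strand 4668 bp from LNC_000159, had 3.09, 3.74 and 5.08 FPKM in LT against 1.90, 0.722 and 0.577 FPKM in C libraries, a relative log2 change of 1.04 ± 0.25 (adjusted p = 0.00888, limma). Gene 104890339, 4517 bp from LNC_001910 on its strand, had 32.6, 38.1 and 66.1 FPKM in LT and 13.7, 40.5 and 15.5 in ST libraries, against 9.202, 2.35 and 2.13 FPKM in C libraries (2.97 ± 0.54, adjusted p = 0.00599). Both rose with the neighbouring lncRNA, and the files give neither a product name. Nearest to LNC_001910 was gene 104890340, 1183 bp away on its strand, which rose less (0.57 ± 0.25, adjusted p = 0.0335, limma). Gene 104904502, a 3-isopropylmalate dehydrogenase, the enzyme of the last oxidation step in leucine synthesis, fell with LNC_005721, to 12.4, 16.3 and 18.6 FPKM in LT against 22.4, 24.2 and 30.8 FPKM in C libraries (-0.94 ± 0.17, adjusted p = 0.0175). Gene 104904503, nearer to the same lncRNA on the opposite strand, rose (0.72 ± 0.14, adjusted p = 0.00469). Nearest to LNC_005721 was gene 109136062, 5818 bp away on the opposite strand, which did not pass (adjusted p = 0.751, limma). Genes 104890339, 104904502 and 104904503 were not the nearest genes and were named after their values were seen. Gene 104902118, 5099 bp from LNC_004748 and on its strand, had 9.45, 10.3 and 5.30 FPKM in LT against 5.84, 5.23 and 6.72 in C libraries and did not pass (adjusted p = 0.177). Gene 104902156, named as a 3-hydroxyisobutyryl-CoA hydrolase-like protein and 2053 bp from LNC_004751, had 41.9, 40.5 and 41.5 FPKM in LT against 37.3, 40.2 and 36.6 in C libraries and did not pass either (adjusted p = 0.313).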

How the data were processed

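Leaf RNA of 9 libraries was depleted of ribosomal RNA and sequenced with the strand kept. Per the study's methods the authors aligned reads with HISAT2 and assembled transcripts with StringTie 1.3.1, and the deposited FPKM values cover 43133 transcripts, with position, length and exon number in other tables. The methods name Cuffdiff for FPKM, which the values do not settle. The sources used here do not name the genome build. Coordinates and gene names are those of the files. The remaining tables were not used.

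Transcripts were taken by type, exon number and sequence name. lncRNAs with a group mean over 0.5 FPKM were fitted as log2(FPKM + 1) in limma 3.58.1 (R 4.3.3) with a group mean, a variance trend and all 9 libraries. P-values were adjusted over the 1914 lncRNAs by Benjamini-Hochberg at 0.05, and genes, as summed transcript FPKM, over 14491. Counts per library had exact permutation tests. Other steps used Python 3.11.15, numpy 2.4.6 and pandas 2.3.3. In simulated data with changes planted in LT, the fit called 50 of 100 at a log2 change of 1 and 89 of 100 at 2. It also called 6 lncRNAs without a planted change. Changes were planted only where the mean of log2(FPKM + 1) was over 1.

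The members and lists were chosen with earlier results of these data known. Named are, per comparison, the 10 largest rises and falls that passed without overlap at a mean of at least 1 FPKM, the members that the study names, the 10 highest members, the 10 most abundant pairs and up to 10 further pairs with a called strand, up to 10 members listed at 0 in 1 group and over 1 FPKM throughout another, and nearest genes within 10 kb. Others are named as exceptions or to complete the 40 calls, after their values were seen. Marker lists were made from product names. Alternatives covered the pseudocount, the filter, 2 scalings, the features and libraries fitted, the trend, the replicate block and leaving out each library.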

Additional observations from a re-analysis of the deposited data

Results flagged for a closer look

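In 2 members the change against C leaves differed between LT and ST leaves by a test of LT against ST itself (limma, adjusted over 1914 lncRNAs). LNC_000160 had an adjusted p of 0.04995, with 4.46, 3.66 and 2.56 FPKM in LT libraries and 0.345, 0.798 and 0 FPKM in ST libraries. LNC_004744 had an adjusted p of 0.00258, with 3.50, 5.00 and 4.57 FPKM in LT libraries and 0.487, 0.352 and 0.445 FPKM in ST libraries. The call of LNC_000160 was lost in 11 of 18 alternatives (adjusted p between 8.89e-07 and 0.185), and that of LNC_004744 in 0 of 18 (between 7.55e-08 and 0.0373). Both were higher in 3 of 3 LT libraries than in every ST library, and both were listed at 0 in all C libraries. Both entered the test through the LT mean alone, so the filter favoured high LT values in them.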

How the results depend on the processing

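For LT against C, 40 members passed, and 66 without a filter, 21 with the libraries of 2 groups only, 69 with all transcripts adjusted together and between 18 and 57 without 1 library. For ST against C, 1 passed, and 2 with a pseudocount of 0.1, 4 at a filter of 1 FPKM, 16 without a filter, 2 at equal total FPKM, 0 with median ratios, 2 groups only, no trend or all transcripts, and between 0 and 5 without 1 library. For LT against ST, 2 passed, and 35 without a filter, 1 with a pseudocount of 0.1, median ratios, 2 groups only or all transcripts, and between 1 and 10 without 1 library (10 without LT1, 4 without LT2). The number of members over 0.5 FPKM differed by -50.3 between LT and C leaves with median ratios, against 105 as deposited, and by 240.7 at equal total FPKM. Pairs numbered 48 at 90% overlap and 58 at any overlap. With a changed strand balance there was 1 pair in LT against C at a pseudocount of 0.1 (7 as reported), and between 2 and 9 without 1 library. In ST against C there were between 0 and 4 and in LT against ST between 0 and 1 without 1 library. Genes beside called members that passed numbered 7 with median ratios, 16 at equal total FPKM and 11 as reported.

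Libraries with the same replicate number did not deviate together (correlations between -0.22 and 0.11, and 1 of 9 libraries matched its own number best), so the numbers were not taken as pairs. With the replicate block, 29 members passed in LT against C, 0 in ST against C and 1 in LT against ST, and the strand balance changed in 2 pairs in LT against C. Of 2640 alternative values of named members, 2470 kept their side of the threshold, 109 lost it, 61 gained it and 0 turned. Read depth is unknown, so members under 1 FPKM have no counting interval.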
